A study of Mus musculus with 32 samples.

Results

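Cholesterol is built from acetyl-CoA through mevalonate, isoprenoid units, squalene and lanosterol, and 8 genes for enzymes along that route were followed here: Hmgcs1, Idi1, Fdps, Fdft1, Sqle, Lss, Cyp51 and Dhcr7. They were taken by gene symbol from the first column of the 4 deposited tables, 8 of 22609 rows in the culture and Rag1-/- host tables and 8 of 25277 rows in the day 4 and day 6 tables. All 8 encode synthesis enzymes. None encodes an uptake protein, so uptake and transport genes are described from a separate list of 12 genes.

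The libraries came from E0771, a mouse mammary tumour line, sequenced as mRNA in 32 libraries and 8 groups. In culture there were 3 libraries of E0771 DDR1 WT cells, titled E0771-P, EV and Ctrl, and 2 libraries of E0771 DDR1 KO cells, titled 3-6 and 3-7. Tumours of E0771 DDR1 WT or KO cells were sequenced from Rag1-/- hosts (5 and 5 libraries), which lack mature lymphocytes, and from C57BL/6 hosts at day 4 (4 and 5 libraries) into which they had been moved out of Rag1-/- mice. At day 6, C57BL/6 tumours were given IgG or an antibody raised to the hDDR1 ECD (4 and 4 libraries), and their labels give no Ddr1 genotype. Libraries are numbered within each group by their titles, or in culture in the order just given. The labels do not say whether libraries of a group came from separate mice or cultures, whether 3-6 and 3-7 are single clones, or how long tumours grew in Rag1-/- hosts, so p-values measure the spread between these libraries, which may be technical. Ddr1, which encodes the collagen receptor DDR1, was lower in KO than in WT libraries in culture, in Rag1-/- hosts and at day 4 (log2 change -3.03, -2.34 and -2.23, limma adjusted p = 0.00409, 3.88e-11 and 0.00366), and no KO library reached the range of its WT group.

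Each table held normalized read counts, from which whole reads per gene were recovered. The culture libraries held 29270919 to 37425032 reads. Rag1-/- host libraries held 18967300 to 25516204, day 4 libraries 20148955 to 28600639 and day 6 libraries 20220028 to 39732635. Levels are given as RPM, a gene's reads per 1000000 recovered reads of its library, which can be set side by side across tables but not tested, since host, time and sequencing set change together between tables and cannot be told apart. Gene rows also differ, 22609 for culture and Rag1-/- hosts and 25277 for day 4 and day 6. How reads were counted is not stated, so differences in counting may enter ratios between them. In tumours, fewer tumour cells and less RNA of a gene per tumour cell cannot be told apart either. Ddr1 was at 15.9 to 22.1 RPM in day 6 IgG libraries and 18.5 to 28.5 under antibody, below every WT library. WT libraries held 171 to 213 (culture), 174 to 189 (Rag1-/- hosts) and 132 to 175 (day 4). KO libraries held 19.0 to 26.7, 33.3 to 42.3 and 27.9 to 49.7. The cause of the low day 6 level was not tested. The sum of 10 macrophage markers was 16.0 to 53.2 RPM in cultured cells; tumours held 945 to 1576 (Rag1-/- hosts), 1565 to 4542 (day 4) and 2904 to 12319 (day 6). Some libraries stood apart in markers of other tissues: at day 4, KO libraries 2 and 4 held 5622 and 3084 RPM of 8 adipocyte markers against 144 to 588 in the other KO libraries, and KO library 3 held 613 RPM of 7 keratinocyte and skin markers against 12.4 to 54.6. Day 4 WT libraries held 46.7 to 465 RPM of these adipocyte markers. Their keratinocyte and skin markers summed to 0.688 to 1.81 RPM, below every day 4 KO library.

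Sterol synthesis is controlled mainly through SREBP2, a transcription factor held in the endoplasmic reticulum with its escort SCAP by INSIG proteins while sterols are plentiful. When sterols fall, SREBP2 is cleaved in the Golgi, enters the nucleus and raises the genes of the synthesis route together with genes for sterol uptake. Dividing cells need the route for new membrane, and its side branches supply the lipid groups of prenylated proteins and dolichol.

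Because SREBP2 reads a short sterol regulatory element in promoters, the RefSeq windows from 250 bases before to 50 bases after the start (build GRCm38.p6) are shown for 4 of the 5 enzymes that had one, written 5′ to 3′ on the gene's strand. Windows were matched by symbol for 5 of 8 members (Fdps, Fdft1 and Sqle are named only). Capitals mark the 2 element forms searched, TCACNCCAC and TCACCTCAG, and 3 further boxes, of which one is written CCAAT, another is the GC box GGGCGG and the last is the E-box CACGTG. Each was searched on both strands, so that a match on the other strand appears as its reverse complement, and the motifs were chosen with these sequences in view.
Hmgcs1 (chr13:119690101-119690400, plus strand): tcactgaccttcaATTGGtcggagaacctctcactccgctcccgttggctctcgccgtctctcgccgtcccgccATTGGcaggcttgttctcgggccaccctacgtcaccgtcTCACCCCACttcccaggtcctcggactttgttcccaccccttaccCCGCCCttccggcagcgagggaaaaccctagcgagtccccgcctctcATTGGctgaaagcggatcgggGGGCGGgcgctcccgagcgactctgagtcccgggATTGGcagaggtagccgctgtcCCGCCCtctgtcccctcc
Idi1 (chr13:8885356-8885655, plus strand): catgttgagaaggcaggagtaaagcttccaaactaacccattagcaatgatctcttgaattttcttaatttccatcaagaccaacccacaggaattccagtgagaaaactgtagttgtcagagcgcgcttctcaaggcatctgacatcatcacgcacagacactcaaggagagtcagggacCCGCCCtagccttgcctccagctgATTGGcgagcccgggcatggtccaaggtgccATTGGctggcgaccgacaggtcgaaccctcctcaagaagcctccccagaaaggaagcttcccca
Lss (chr10:76531355-76531654, plus strand): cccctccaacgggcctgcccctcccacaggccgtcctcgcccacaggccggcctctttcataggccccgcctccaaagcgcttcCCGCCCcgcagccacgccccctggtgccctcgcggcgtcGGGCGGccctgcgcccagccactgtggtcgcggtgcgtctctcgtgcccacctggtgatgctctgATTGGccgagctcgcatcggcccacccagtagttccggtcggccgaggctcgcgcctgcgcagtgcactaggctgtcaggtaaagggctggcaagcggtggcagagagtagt
Cyp51 (chr5:4104648-4104947, minus strand): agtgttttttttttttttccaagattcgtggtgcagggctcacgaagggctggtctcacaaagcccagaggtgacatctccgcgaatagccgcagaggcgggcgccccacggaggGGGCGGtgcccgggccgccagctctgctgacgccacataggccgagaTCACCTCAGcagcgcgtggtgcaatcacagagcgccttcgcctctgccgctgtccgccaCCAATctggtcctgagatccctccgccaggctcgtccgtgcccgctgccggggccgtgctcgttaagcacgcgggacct
The Hmgcs1 window held 1 match to TCACNCCAC, written TCACCCCAC and starting 137 bases before the start site, with 4 matches to CCAAT and 3 to GGGCGG. The Cyp51 window held 1 match to TCACCTCAG, 88 bases before the start. Of all 32851 windows, 1.24% held the first form and 0.381% the second. Idi1 and Lss held neither form, nor did the 3 windows of Dhcr7. CCAAT was in 37.4% of all windows and GGGCGG in 35.7%, and each printed window held at least 1 of both; CACGTG was in 7.15% of windows and in none of the 4. No motif match overlapped another. A match is a description of letters and not a site of binding.

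The plainest pattern in these genes was between tables: as a group, the enzymes were lower in culture and at day 4 than in Rag1-/- hosts and at day 6. Lss was an exception at day 6, and Sqle under IgG at day 6 (126 to 196 RPM) overlapped culture WT (90.3 to 143 RPM). Fdps in Rag1-/- KO tumours (42.4 to 68.2 RPM) overlapped day 4 KO (29.5 to 68.5 RPM). No ratio of day 6 to culture was taken, nor its share over all genes. Averaged over the 7 enzymes measured in every table, the level on the log2(RPM + 1) scale was 4.82 ± 0.34 (SD, n = 3) in culture WT, 4.92 ± 0.19 (n = 2) in culture KO, 5.88 ± 0.18 (n = 5) in Rag1-/- WT, 5.77 ± 0.21 (n = 5) in Rag1-/- KO, 4.37 ± 0.20 (n = 4) in day 4 WT, 4.75 ± 0.38 (n = 5) in day 4 KO, 5.98 ± 0.20 (n = 4) in day 6 IgG and 5.83 ± 0.31 (n = 4) under antibody. Ranked by that mean, each group overlapped the one above it except at a single gap, between Rag1-/- KO and culture KO. Rag1-/- WT tumours exceeded culture WT in 7 of 7 enzymes, by 1.43- to 5.71-fold with a median of 1.79-fold, and 6 of 7 did so with no overlap, against 31.5% of all 11490 genes, whose median ratio was 0.992. They exceeded day 4 WT tumours in 7 of 7 with no overlap, by a median of 2.43-fold, against 39.1% of 11247 genes and a median ratio of 1.13. Day 6 IgG tumours exceeded day 4 WT tumours in 8 of 8 with no overlap, by a median of 3.85-fold, against 23.2% of 13686 genes and a median ratio of 1.09. KO groups ran the same way: Rag1-/- KO over culture KO had a median of 1.72-fold (7 of 7 with no overlap, background 37.4%) and over day 4 KO a median of 2.06-fold (6 of 7, background 36.5%). Day 6 IgG exceeded day 4 KO by a median of 2.35-fold (8 of 8 higher, 7 with no overlap, background 16.2%). Without day 4 KO library 3 these last 2 medians were 2.28 and 2.68, and without the E0771-P library the first was 1.61.

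The summed RPM of 12 cell cycle genes did not run in that order: cultured cells were highest, at 3553 to 4502, before tumours of Rag1-/- hosts (2422 to 2717), of day 6 (1629 to 2268) and of day 4 (1120 to 2088). The sum of 10 fibroblast markers was highest at day 4, at 3679 to 17881 RPM, against 2578 to 5236 at day 6, 903 to 1688 in Rag1-/- hosts and 176 to 919 in cultured cells. Their part in the level differences was not tested.

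**Figure D1:**
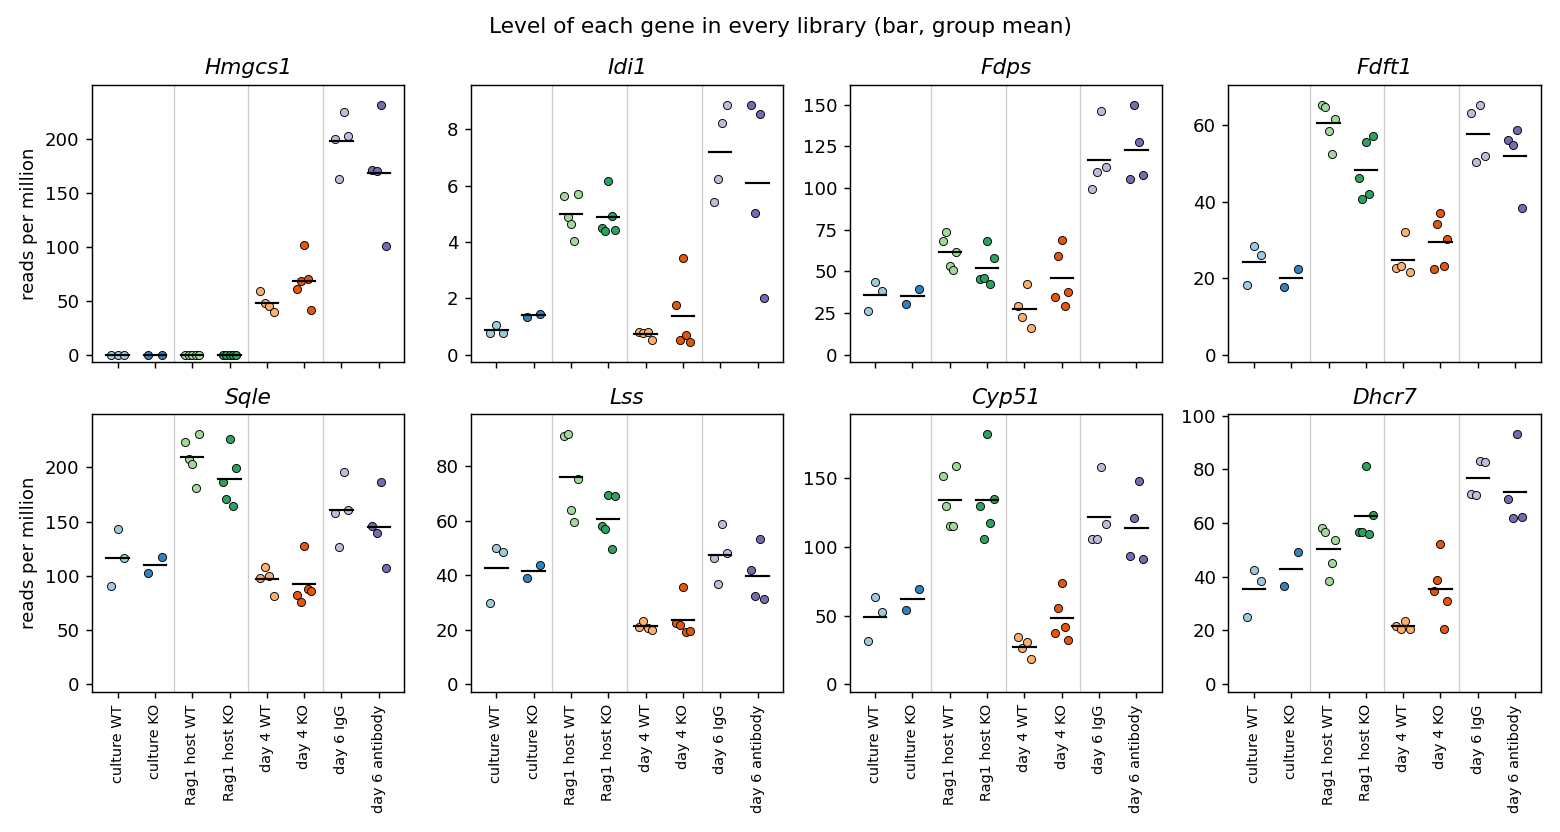
Level of the 8 enzymes in each of the 32 libraries, in RPM on a linear axis from 0; each point is a library and each bar a group mean. Points sit low in culture and at day 4 and high in Rag1-/- hosts and at day 6 for most enzymes, Lss at day 6 lies in the culture range or near it, and Hmgcs1 is listed at 0 in every culture and Rag1-/- library.

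Hmgcs1 encodes cytosolic HMG-CoA synthase, which makes HMG-CoA on the way to mevalonate. It was listed at 0 in all 15 culture and Rag1-/- libraries, as were 10 other genes whose mean exceeded 20 RPM at day 6, so no level was read from those tables. At day 4 its WT libraries held 59.0, 47.5, 45.5 and 39.1 RPM and its KO libraries 60.9, 68.5, 102, 69.7 and 41.0 RPM. At day 6 the IgG libraries held 199.96, 163, 225 and 203 RPM and the antibody libraries 172, 169.8, 231 and 100.2 RPM. Every IgG library at day 6 was above every day 4 library, and antibody library 4 fell within the day 4 KO range.

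Idi1, which encodes the isomerase that turns isopentenyl diphosphate into dimethylallyl diphosphate, was the lowest of the measured enzymes per length in every group, at 0.205 to 2.05 RPM per kilobase of annotated exon, and rested on as few as 10 reads in a library. It also spanned the widest range between groups. Culture WT libraries held 0.786, 1.06 and 0.775 RPM, and Rag1-/- WT libraries 5.65, 4.90, 4.64, 4.04 and 5.70 RPM. At day 4 the WT libraries held 0.799, 0.774, 0.794 and 0.512 RPM, and at day 6 the IgG libraries 5.42, 6.25, 8.21 and 8.86 RPM. These 2 high groups stood 5.71-fold above culture WT and 9.98-fold above day 4 WT respectively, with no overlap.

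Fdps encodes farnesyl diphosphate synthase, whose product is the last shared by sterols and prenylated proteins. Its highest levels were at day 6: IgG libraries held 99.3, 109.7, 146 and 113 RPM and antibody libraries 105, 149.9, 127 and 108 RPM, all above every library of the other tables. The day 6 IgG mean was 4.25-fold the day 4 WT mean. In KO tumours the Rag1-/- mean was only 1.13-fold the day 4 mean, with overlap, beside a median ratio of 1.12 over all genes. Reads of Fdps may include those of the overlapping gene model Gm43738 on the same strand.

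Fdft1 encodes squalene synthase, the first enzyme committed to sterols. Rag1-/- WT libraries held 65.3, 64.7, 58.6, 52.4 and 61.7 RPM, against 18.2, 28.4 and 26.2 RPM in culture WT and 22.7, 23.3, 32.1 and 21.6 RPM at day 4 WT. Both gaps were clear of overlap, and culture KO was the lowest group for this gene, at 17.7 and 22.4 RPM.

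Sqle encodes squalene epoxidase, which puts oxygen on squalene and is one of the slow steps of the route. Per length it was the highest of the 7 enzymes in Rag1-/- WT tumours, at 37.7 RPM per kilobase of exon, next to 30.4 for Cyp51, 14.6 for Fdps, 14.3 for Fdft1, 8.66 for Dhcr7 and 7.07 for Lss. Against day 4 WT its ratio was the smallest of the enzymes, 2.16 for Rag1-/- WT and 1.65 for day 6 IgG, while against culture WT it was 1.79, above those of Lss, Fdps and Dhcr7. Exon lengths join all annotated isoforms, which lowers values for genes with many, such as Lss.

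Lss, the cyclase that closes lanosterol from squalene epoxide, was lowest at day 4, where WT libraries held 20.9, 23.4, 20.7 and 19.9 RPM. In Rag1-/- WT tumours it held 91.0, 91.8, 63.8, 59.5 and 75.3 RPM, 3.60-fold more on average, and in culture WT 29.9, 50.02 and 48.5 RPM. Its day 6 levels were not above culture: IgG libraries held 46.5, 36.7, 58.7 and 48.3 RPM and overlapped culture WT, and the antibody mean of 39.8 RPM lay under both culture means, 42.8 for WT and 41.4 for KO.

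Cyp51, the cytochrome P450 that removes a methyl group from lanosterol, held 152, 130.1, 115, 115 and 159 RPM in Rag1-/- WT tumours and 34.4, 26.0, 30.7 and 18.3 RPM in day 4 WT tumours, a 4.91-fold difference with no overlap. Culture WT libraries, at 31.4, 63.6 and 52.7 RPM, overlapped day 4 WT and not Rag1-/- WT. The gene lies on the strand opposite Akap9 and Fdft1 opposite Ctsb, which they overlap, and strand use in counting is not given in the sources used here, so reads of both genes are uncertain to that extent.

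Dhcr7, the reductase of the last step to cholesterol, had its highest mean at day 6 IgG, at 70.7, 70.3, 83.1 and 82.6 RPM, 3.57-fold the day 4 WT mean. It was the 1 enzyme whose culture WT and Rag1-/- WT libraries overlapped, at 25.2 to 42.6 and 38.3 to 58.0 RPM.

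In culture, loss of Ddr1 left no enzyme past the threshold, which was a Benjamini-Hochberg adjusted p under 0.05 from limma fitted to log2(normalized count + 1) of all genes of the table. Called were 0 of 7 enzymes, against 0.327% of 11911 genes. None had an unadjusted p under 0.05 by limma, against 2243 of the 11911 genes. On recovered reads edgeR and DESeq2 also called 0 of 7, against 25 and 1055 genes in all. Only Idi1 had groups that did not overlap, a state found for 36.2% of genes: KO libraries held 1.35 and 1.46 RPM, above the 3 WT libraries, with a log2 change of 0.70 (SE 0.35, adjusted p = 0.342). No gene of the 5 pathway lists passed by limma (DESeq2 called 2), with the smallest p-values for Nr1h2 (-0.55, adjusted p = 0.0686) and Gramd1a (-0.41, adjusted p = 0.0773). Insig1 was at 0.57 (SE 0.35, adjusted p = 0.432 by limma) and Srebf2 at -0.03 (SE 0.27). The other 6 changes of the enzymes ran from -0.23 for Fdft1 to 0.41 for Cyp51, with SEs of 0.19 to 0.29. The E0771-P library was the lowest WT library for 6 of 7 enzymes. Without it, Fdps and Lss went from 0.00 and 0.01 to -0.21 and -0.22, Cyp51 from 0.41 to 0.12 and Dhcr7 from 0.33 to 0.11, while calls over all genes went from 39 to 1655, again with 0 enzymes. E0771-P also held 55.0 RPM of adipocyte markers against 15.6 to 22.0 in the other 4 culture libraries.

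In Rag1-/- hosts, 6 of 7 enzymes lay lower in KO than in WT tumours and 1 of 7, Fdft1, fell past the threshold, against 22.7% of 12795 genes in either direction and 11.4% lower. KO tumours held 46.3, 40.6, 55.6, 42.1 and 57.3 RPM of Fdft1 against 65.3, 64.7, 58.6, 52.4 and 61.7 RPM in WT, which by limma was -0.37 in log2 (SE 0.09, adjusted p = 0.0130). The groups overlapped because KO libraries 3 and 5 lay above the lowest WT library. The authors' deposited table gave the same gene an adjusted p of 0.0113, the 1 enzyme under 0.05 there. Lss changed by -0.35 (SE 0.12, adjusted p = 0.0505), just outside the threshold, at 58.0, 57.2, 69.6, 49.5 and 69.3 RPM in KO against 91.0, 91.8, 63.8, 59.5 and 75.3 RPM in WT. It passed by edgeR (adjusted p = 0.0476) and by DESeq2 (0.0157), so that both tools called 2 of 7. Over all genes these tools called 1469 and 1604 lower. Fdps (-0.29, SE 0.13, adjusted p = 0.117) and Sqle (-0.18, SE 0.08, adjusted p = 0.111) lay lower without passing, and Idi1 and Cyp51 were at -0.07 and -0.05.

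Dhcr7 went the other way in these tumours, at 56.6, 56.8, 81.1, 55.8 and 62.9 RPM in KO against 58.0, 56.7, 38.3, 45.1 and 53.8 RPM in WT (log2 change 0.28, SE 0.12, adjusted p = 0.100). All 7 pairs of groups overlapped, and over all genes 15.0% did not. KO library 3 was the highest KO library for 6 of 7 enzymes. Without it, 4 of 7 passed, adding Fdps (-0.38, adjusted p = 0.0216), Sqle (-0.24, adjusted p = 0.0206) and Lss (-0.40, adjusted p = 0.0333). That fit called 1517 of 12791 genes lower and 1540 higher. Leaving out WT library 3, WT library 4 or KO library 5 gave 2 of 7, Fdft1 and Lss, with adjusted p for Lss of 0.0399 and 0.0207 without the WT libraries. Over all genes these fits called 1150, 1269 and 1327 lower. Fdft1 passed in all 10 fits that left out 1 library, with adjusted p of 0.00510 to 0.0387.

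The rest of the pathway in Rag1-/- hosts was mixed by role, and its counts stand beside 11.3% of all genes called higher and 11.4% called lower, so that several lie near that background. Among 7 regulators, Srebf2, which encodes SREBP2, fell by 0.29 (SE 0.07, adjusted p = 0.0150) and Scap fell by 0.28 (SE 0.06, adjusted p = 0.00344), and 0 rose; Insig1 was at -0.0048 (adjusted p = 0.983), its sign depending on the scaling. Of 11 uptake and transport genes tested, 2 fell and 2 rose. Gramd1a, a carrier of sterol from the plasma membrane, fell by 0.44 and Npc2, a lysosomal cholesterol carrier, fell by 0.23, whereas the lysosomal exporter Npc1 rose by 0.37 and Gramd1b by 0.24. Of 8 efflux and liver X receptor genes, the exporter Abca1 rose by 0.46 (adjusted p = 0.00616) and the receptors Nr1h2 and Nr1h3 fell by 0.34 and 0.19. Of 11 fatty acid genes, Acaca and Fads1 fell by 0.21 and 0.27 and Elovl5 rose by 0.12 (adjusted p = 0.0495). That count of 3 was 1 without trend, with the replicate number as a block, or without WT library 2 or KO library 1, 2 or 4, and 5 without KO library 3. None of the 12 other cholesterol enzymes in the list passed by limma (DESeq2 called 2, and limma 4 without KO library 3 and 1 without WT library 3, 4 or 5): 9 lay below 0, the smallest p-values were for Lbr (-0.13, adjusted p = 0.0623) and Pmvk (-0.30, adjusted p = 0.0676). The median log2 change was -0.18 over the 7 enzymes, -0.14 over these 12 and -0.0035 over all genes tested. Of the cell cycle list 2 of 12 genes fell, of the adipocyte markers 1 of 6 tested fell, of the fibroblast markers 1 of 10 rose and 1 fell, of the macrophage markers 1 of 10 rose and of the luminal epithelial markers 1 of 4 tested rose, against the same 11.3% and 11.4%; their part in these changes was not tested.

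At day 4 in C57BL/6 hosts 7 of 8 enzymes lay higher in KO than in WT tumours, and none passed. Limma called 0 of 8, against 0.0354% of 14105 genes, and edgeR and DESeq2 also called 0 of 8. By limma 2 of 8 had an unadjusted p under 0.05, against 2116 of the 14105 genes. Cyp51 held 37.3, 55.5, 73.7, 41.8 and 32.5 RPM in KO against 34.4, 26.0, 30.7 and 18.3 RPM in WT (log2 change 0.73, SE 0.26, adjusted p = 0.257). Dhcr7 held 34.8, 38.7, 52.2, 20.3 and 30.8 RPM in KO against 21.5, 20.3, 23.3 and 20.7 RPM in WT (0.60, SE 0.23, adjusted p = 0.279). In both genes all but 1 KO library lay above the WT range, and 0 of 8 enzymes had groups clear of overlap, a state found for 5.76% of genes.

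Fdps was at 0.69 (SE 0.33, adjusted p = 0.356), Idi1 at 0.45 (SE 0.58), Hmgcs1 at 0.41 (SE 0.23), Fdft1 at 0.17 (SE 0.20) and Lss at 0.06 (SE 0.19), and Sqle alone lay below 0, at -0.15 (SE 0.17). The median over the 8 was 0.43, and over all genes tested 0.0028. KO library 3 was the highest library of its group for all 8 enzymes. Without it Cyp51 was at 0.55, Fdps at 0.52, Dhcr7 at 0.43, Hmgcs1 at 0.24, Idi1 at 0.01 and Lss at -0.10. That library also held the most keratinocyte markers, given above, and the most cell cycle RNA of its group, 2088 RPM against 1362 to 1642. In the KO group endothelial markers (8 genes) ran from 269 to 1033 RPM and in the WT group from 78.6 to 336. Keratinocyte markers ran from 12.4 to 613 RPM in KO and from 0.688 to 1.81 in WT. Adipocyte markers ran from 144 to 5622 RPM in KO and from 46.7 to 465 in WT. Fibroblast markers ran from 4416 to 17881 and from 3679 to 13779, and muscle markers from 8.19 to 2817 and from 11.3 to 1377. Their part in these values was not tested. No gene of the 5 pathway lists passed by limma; the smallest p-values were for Acat2 (1.10, adjusted p = 0.178), Insig2 (-0.51, adjusted p = 0.164), Gramd1a (-0.57, adjusted p = 0.159), Nr1h2 (-0.55, adjusted p = 0.122) and Fads1 (0.38, adjusted p = 0.181). DESeq2 called 8 genes of these lists at day 4, which held 12, 7, 12, 8 and 11 tested genes. Over all genes it called 689 of 13911. Insig1 was at 0.49 (SE 0.16, adjusted p = 0.233 by limma) and Srebf2 at 0.10 (SE 0.19).

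The difference between the KO effects in Rag1-/- hosts and at day 4 was tested from both limma estimates with a normal approximation, whose p-values are too small at this number of libraries. None of the 7 enzymes passed, against 8.44% of 11247 genes. The nearest were Fdps, whose effect was higher at day 4 by 0.98 (SE 0.35, adjusted p = 0.0596), and Cyp51, by 0.78 (SE 0.29, adjusted p = 0.0730); Fdft1 differed by 0.54 (SE 0.22, adjusted p = 0.113) and Sqle by 0.03 (SE 0.19). Fdps passed in 7 and Cyp51 in 4 of 19 fits that left out 1 library, and up to 3 enzymes passed at once. Between culture and Rag1-/- hosts, 0 of 7 enzymes differed past the threshold, against 6.50% of 11490 genes.

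Under the antibody at day 6, 7 of 8 enzymes lay below IgG and none passed. Limma called 0 of 8, against 0% of 14155 genes, with 0 of 8 at an unadjusted p under 0.05; edgeR and DESeq2 called 0 of 8, and over all genes DESeq2 called 166 and edgeR 0, while 1218 genes had an unadjusted p under 0.05 by limma. The log2 changes were -0.42 for Idi1 (SE 0.43), -0.29 for Hmgcs1 (SE 0.22), -0.27 for Lss (SE 0.19), -0.16 for Fdft1 and Sqle, -0.12 for Dhcr7, -0.11 for Cyp51 and 0.07 for Fdps, with adjusted p of 0.560 to 0.876. The 95% interval for Hmgcs1 ran from -0.78 to 0.21 and that for Dhcr7 from -0.42 to 0.18. Groups overlapped for all 8 enzymes, and 3.90% of genes had groups clear of overlap. Antibody library 4 was the lowest of its group for 6 of 8 enzymes, with 2.02 RPM of Idi1 against 5.02 to 8.86 in the other 3 and 38.4 RPM of Fdft1 against 54.8 to 58.9. Without it Idi1 was at 0.03, Hmgcs1 at -0.06, Sqle at -0.03, Fdft1 at -0.03 and Lss at -0.18. This library also held the most macrophage markers of the 8, 12319 RPM against 2904 to 6444, and the most T cell markers, 353.9 RPM against 17.9 to 158. Srebf2 lay at -0.20 (SE 0.23) and Insig1 at -0.12 (SE 0.18). Antibody libraries 2 and 4 held 790 and 707 RPM of adipocyte markers against 34.1 to 166.8 in the other 6; without both, Idi1 was at 0.27, Sqle at 0.033, Dhcr7 at 0.037 and Fdps at -0.027. Antibody library 3 held 202 RPM of keratinocyte and skin markers against 0.343 to 9.47 in the other day 6 libraries. Muscle markers ran from 153 to 6540 RPM under IgG and from 6.47 to 260 under antibody. Luminal epithelial markers ran from 185 to 207 RPM under IgG and from 185 to 515 under antibody. The part of these markers was not tested. No gene of the pathway lists passed; the smallest p-values by list were for Mvk (0.29), Mbtps2 (-0.51), Vldlr (-1.33), Soat1 (-0.33) and Fads2 (-0.41), with adjusted p of 0.517 to 0.519.

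**Figure D2:**
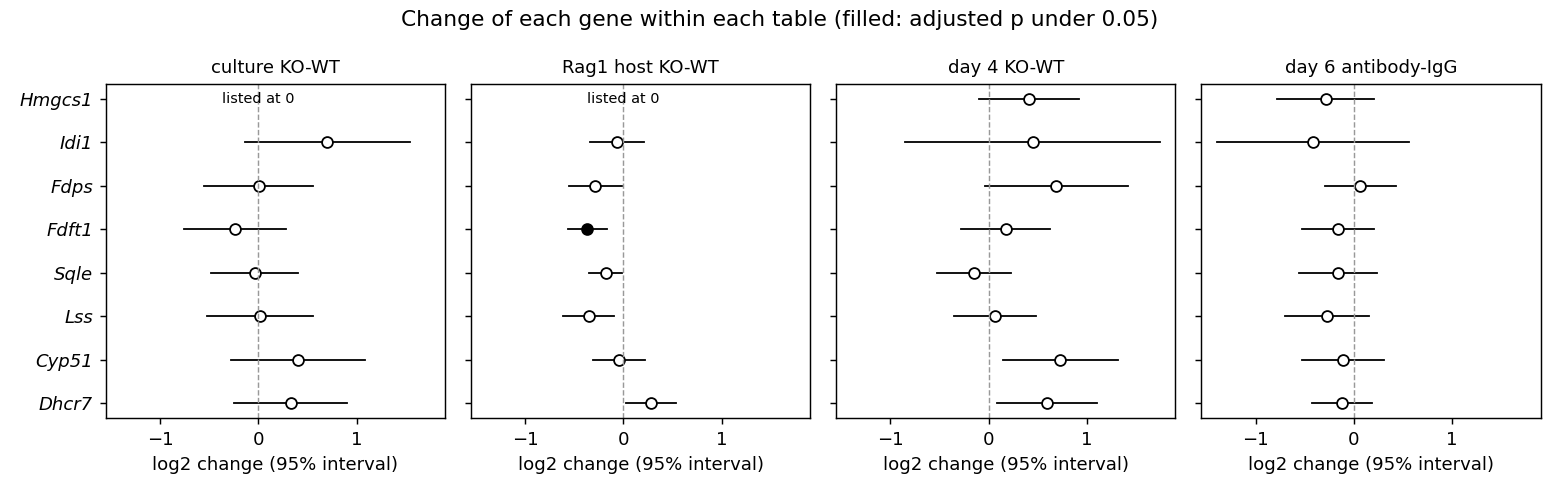
Log2 change of each enzyme within each table with its 95% interval from limma; filled points have an adjusted p under 0.05. Fdft1 in Rag1-/- hosts is the 1 filled point, and most points lie below 0 in Rag1-/- hosts and at day 6 and above 0 at day 4.

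Within groups, the enzymes tended to vary together from library to library. For each of the 7 enzymes measured throughout, the deviation of log2(RPM + 1) from the group mean was taken in each of 32 libraries, which removes the differences between groups. The 21 pairs of enzymes had Pearson r from 0.34 (Idi1 with Fdps) to 0.86 (Sqle with Lss), with a median of 0.71. Genes of a library share its depth and total, so r is a description and carries no test. Against the mean of the other 6, Sqle, Lss, Cyp51 and Dhcr7 had r of 0.83 to 0.86 and Idi1, the gene with fewest reads, 0.60. Within single tables this r for Fdps ran from 0.45 at day 6 to 0.99 in culture. For Sqle it ran from 0.74 at day 4 to 0.97 in culture. The r between enzymes include day 4 KO library 3 and day 6 antibody library 4, and were not taken without them. In Rag1-/- KO tumours library 3 was above the group mean for 7 of 7 enzymes and library 2 for 0 of 7. In day 4 KO tumours library 3 was above for 7 of 7, by 0.63 on average, and library 4 for 0 of 7. In day 6 antibody tumours library 3 was above for 7 of 7, by 0.35, and library 4 for 0 of 7, at -0.41.

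**Figure D3:**
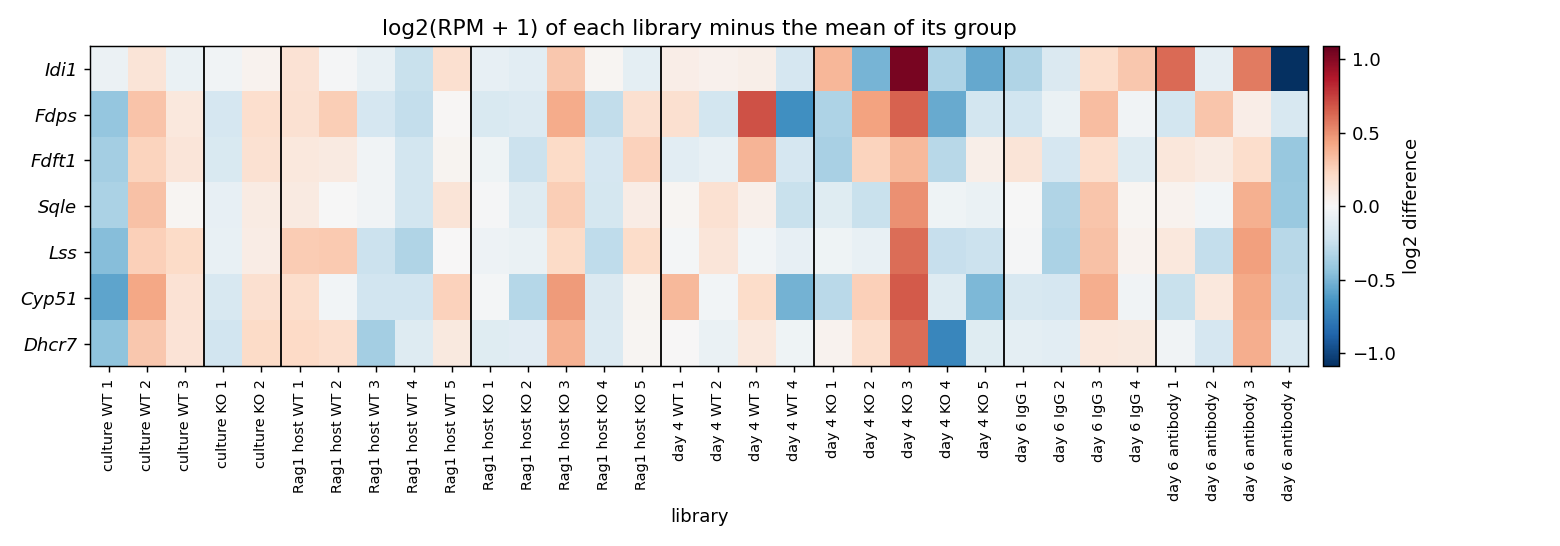
Deviation of log2(RPM + 1) from the group mean for 7 enzymes (rows) in 32 libraries (columns, with lines between groups); red is above and blue below the mean. Columns tend to hold 1 colour from top to bottom, such as day 4 KO library 3 above and day 6 antibody library 4 below.

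Ranked by likeness to the mean deviation of the 7 enzymes, 9014 other genes with a mean of 50 or more in every table had a median r of 0.10. Of the 10 most alike, Nsdhl, which removes methyl groups after Cyp51, was first with r = 0.92, then Mvd, the last step to isopentenyl diphosphate (0.84), Fads2, a fatty acid desaturase (0.84), Pnma5 (0.83), Neil3, a DNA glycosylase (0.79), Cyb5b, a cytochrome b5 of the outer mitochondrial membrane (0.79), Stard4, a sterol carrier (0.79), Cdca2, a mitotic chromatin protein (0.78), Lbr, a sterol reductase of the nuclear envelope (0.77), and Acsl3, which activates fatty acids (0.77). Without the 2 libraries farthest from their group means, day 6 antibody 4 and day 4 KO 3, these r ran from 0.67 to 0.93, and Spearman's rho over all libraries from 0.71 to 0.93. Within single tables Nsdhl stayed between 0.87 and 0.98 and Stard4 ran from 0.53 to 0.99, over 5 to 10 libraries each.

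The lists spanned a wide range of likeness. Of 11 other cholesterol enzymes ranked, Acat2, Lbr, Sc5d, Pmvk and Mvk had r of 0.65 to 0.77, and Ebp and Ggps1 had 0.10 and 0.22. Srebf2 had r = 0.76 and Insig1, itself a target of SREBP2, 0.68. Several genes that handle cholesterol inside or out of the cell had negative r: Lipa, the lysosomal esterase, had r = -0.52 (-0.33 without the 2 farthest libraries), Npc1 -0.50 (-0.45), Apoe -0.45 (-0.23) and Soat1 -0.20 (-0.21). Scarb1, the scavenger receptor for high density lipoprotein, was at 0.43. All 6 efflux and liver X receptor genes ranked were below 0, and without the 2 farthest libraries Abcg1 and Nr1h3 were above it, at 0.16 and 0.09. Fatty acid genes were split, with Elovl6 at 0.71 and Scd2 at 0.59 but Fasn at 0.19 and Acly at 0.16.

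The same deviations also went with markers. The cell cycle list had r = 0.68 with the enzymes (0.55 without the 2 farthest libraries), at 0.94 in culture, 0.14 in Rag1-/- hosts, 0.65 at day 4 and 0.93 at day 6. The culture value carries little, since it rests on 5 libraries and the deviations of the 2 KO libraries mirror each other. Keratinocyte and endothelial markers, at no more than 0.888 and 5.02 RPM in culture, had r of -0.97 and -0.95 there. Macrophage markers had r = -0.41 (-0.18 without these libraries), endothelial markers -0.48 (-0.39) and luminal epithelial markers -0.43 (-0.35). In Rag1-/- hosts macrophage markers had 0.72 and at day 6 -0.61, so the sign was not shared between tables. Keratinocyte markers had 0.48 (0.30 without these libraries, and Spearman's rho 0.20 with them), with 0.83 at day 4. Their part in the shared variation was not tested.

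**Figure D4:**
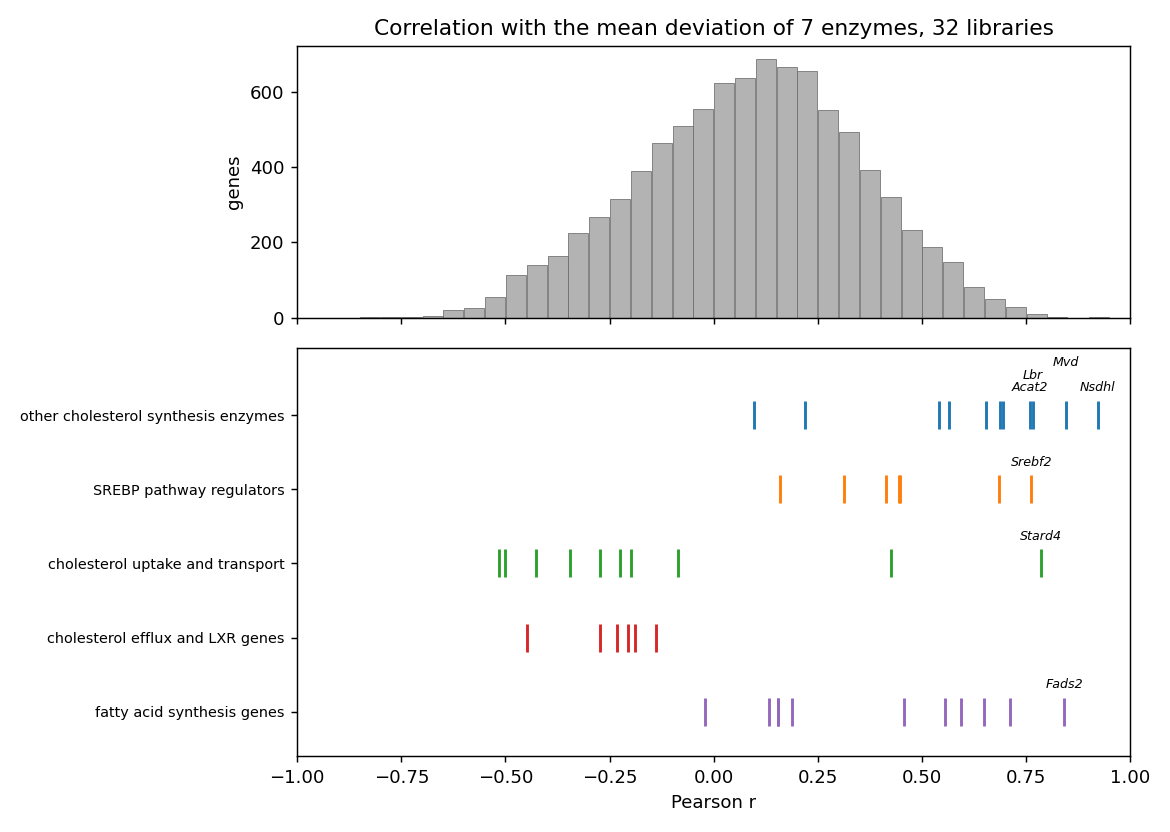
Pearson r of each gene with the mean deviation of the 7 enzymes over 32 libraries: above, the number of genes per bin of 0.05 among 9014; below, the genes of 5 pathway lists, each a tick, with those over 0.75 named. Most other cholesterol enzymes lie far to the right, where few of all genes lie, and the efflux genes lie left of 0, where Abcg1 and Nr1h3 do not stay without the 2 farthest libraries.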

How the data were processed

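RNA was isolated with Trizol and made into stranded TruSeq libraries, per the labels' protocols. CASAVA, TopHat and DESeq2 are named as tools, and mm10 as the build, in the submitters' processing notes; how reads were counted, with which annotation and strand setting, is not stated in those sources. The authors deposited 4 tables of normalized read counts, a signal unit, one per comparison and normalized separately, with p-values and adjusted p-values of their own, quoted as the authors' deposited table. Values in each of 32 libraries were multiples of 1 step, and dividing by it gave whole reads within 0.01 for 100% of values. These reads gave the depth, RPM and, with GENCODE vM21 exon lengths on GRCm38, RPM per kilobase. Of the deposited columns, 18 (means and fold changes) stayed out.

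Tests were run within a table with limma 3.58.1 (R 4.3.3, trend) on log2(normalized count + 1) keeping genes whose mean was at least 10 and adjusting by Benjamini-Hochberg over all of them; fold changes are on that scale, which understates the change of low genes. The planned test for raw counts did not apply. Differences between KO effects used the estimates and SEs of both fits. The fits were repeated with a pseudocount of 0.5 or 5, without the filter or with a minimum of 50, after quantile or upper-quartile scaling, without trend, with the recovered reads in edgeR 4.0.16 and in DESeq2 1.42.0, blocked by replicate number, and leaving out libraries in turn; fits without libraries high in adipocyte or muscle markers, and level ratios without the libraries farthest from their groups, were added after seeing the data. The fits were tested on simulated data. The likeness ranking used 7 members, since Hmgcs1 is listed at 0 in 2 tables. Outside the 8 members, the genes named in each list were those past the threshold, up to 6, or otherwise those of smallest p (at most 2 per list), with Srebf2 and Insig1, and the 10 genes most alike in pattern. Members and lists were chosen with earlier results of these data known. Some genes of the pathway are not reported here and stayed out of the lists and the likeness ranking, not out of the fits. Msmo1 and Adgre1 were matched by older symbols.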

Additional observations from a re-analysis of the deposited data

Results flagged for a closer look

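Of 58 groups of 4 or 5 libraries examined for a library far from the rest, 5 had one, and chance alone gives about 1 in 20. In normalized counts, day 4 WT library 4 was low for Idi1 at 11.97 (the others 18.5 to 19.2) and day 6 antibody library 4 was low for Fdft1 at 1151 (the others 1670 to 1681). Day 4 KO library 3 was high for Sqle at 2998 (the others 1675 to 2043) and for Lss at 837 (443 to 482). Day 6 IgG library 3 was high for Cyp51 at 4716 (3192 to 3356).

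The KO effect differed between Rag1-/- hosts and day 4 in 11 of 48 pathway genes tested that are not among the 8 enzymes, against 8.44% of all genes (949 called, 523 to 1184 with 1 library left out), by the normal approximation from limma estimates, whose p-values are too small at this number of libraries. The effect was higher at day 4 for Fads2 by 1.37 (SE 0.35, adjusted p = 0.00367), Acat2 by 1.24, Mvd by 0.99, Pmvk by 0.75, Fads1 by 0.65, Stard4 by 0.63 and Acaca by 0.47, with adjusted p from 0.000140 to 0.0495. It was lower at day 4 for Gramd1b (-0.75, adjusted p = 0.00100), Npc1 (-0.58), Scd2 (-0.50) and Insig2 (-0.50). Between culture and Rag1-/- hosts 1 of 45 differed, against 6.50% of all genes: the effect was lower in Rag1-/- hosts for Mvk (-0.54, SE 0.18, adjusted p = 0.0493).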

How the results depend on the processing

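Of 564 log2 changes of members under alternatives, 528 kept their direction and side of the threshold, 26 changed sign and 10 gained a call. Calls over all genes were least stable: in culture 39 became 12 without trend, 25 by edgeR and 1055 by DESeq2 (2 to 1655 with 1 library left out); at day 4, 5 became 9 with no filter, 689 by DESeq2, 3 without the libraries high in adipocyte markers and 15 without those high in muscle markers (3 to 50); at day 6, 0 became 166 by DESeq2 (0 to 5). In Rag1-/- hosts 2904 calls stayed between 1984 and 3169, and called members were 2 with a mean of 50, by edgeR and by DESeq2 (1 to 4 with 1 library left out). Calls of the difference between Rag1-/- hosts and day 4 ranged from 523 to 1184 with 1 left out and called members from 0 to 3; between culture and Rag1-/- hosts from 234 to 2127, and 1 member (Idi1) was called without trend. Without the libraries high in adipocyte markers, day 6 changes turned to 0.27 for Idi1, 0.033 for Sqle, 0.037 for Dhcr7, 0.18 for Srebf2, 0.072 for Insig1 and -0.027 for Fdps (-0.059 without those high in muscle markers); the cause was not tested. Under upper-quartile scaling, quantile scaling, edgeR and DESeq2, the culture change of Fdps was -0.026, -0.019, -0.020 and -0.019 and that of Lss -0.017, -0.0083, -0.026 and -0.024. Insig1 in Rag1-/- hosts turned to 0.0043, 0.0018 and 0.0018 under upper-quartile scaling, edgeR and DESeq2. With 1 library left out, culture changes ran from -0.21 to 0.21 for Fdps, -0.20 to 0.12 for Sqle, -0.22 to 0.15 for Lss and -0.30 to 0.22 for Srebf2. In Rag1-/- hosts Cyp51 ran from -0.16 to 0.030 and Insig1 from -0.094 to 0.072, at day 4 Lss from -0.10 to 0.12 and Srebf2 from -0.033 to 0.19, and at day 6 Idi1 from -0.67 to 0.032, Fdps from -0.049 to 0.18 and Cyp51 from -0.23 to 0.023. The difference between Rag1-/- hosts and day 4 ran from -0.10 to 0.11 for Sqle, and that between culture and Rag1-/- hosts from -0.32 to 0.055 for Fdft1, -0.31 to 0.022 for Sqle, -0.28 to 0.18 for Dhcr7 and -0.50 to 0.013 for Srebf2. Replicate numbers did not plainly pair libraries in Rag1-/- hosts or at day 4 (same-number correlations of -0.20 to 0.15 between tumours). At day 6 these were 0.45 and 0.35 for numbers 1 and 4 and -0.20 for numbers 2 and 3, so pairing there is not settled. With the number as a block, called members were 2 in Rag1-/- hosts, 0 at day 4 and 0 at day 6. Calls over all genes were then 2411, 1 and 0. At day 6 genes with an unadjusted p under 0.05 by limma went from 1218 to 2017 with the block. Depth limits Idi1 most, at 10 to 352 reads a library.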
